A study of Mus musculus with 3 samples.

Results

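The genes described here bring iron into the cell, store it, export it, or control those steps: Tfrc, Steap3, Slc11a2, Slc11a1 and Slc48a1 for uptake, Fth1 and Ftl1 for storage, Slc40a1 for export, and Aco1 and Ireb2 for control. They were chosen by name, and all 10 were found among the 54532 genes of the deposited table. Of these, 9 had a mean of 1 FPKM or more over the libraries, as did 11069 genes in all. FPKM stands for fragments per kilobase of gene, scaled by a factor for each library that allows for its depth. Slc40a1 did not reach a mean of 1 FPKM.

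Messenger RNA was measured in RAW264.7 cells, an established mouse macrophage line of wild-type genotype that turns into bone-resorbing osteoclasts under the cytokine RANKL. All cells had RANKL for 3 days, so a value given as without TSH is that of RANKL alone. The control library, labelled 0 h, had no thyroid stimulating hormone (TSH), and the other libraries had TSH at 10 mU/mL, either for 2 h or for 24 h, with 1 library per condition and 3 in all. Time in culture may differ along with TSH, and the effects of time and of TSH cannot be told apart here. The TSH columns are named T1 and T2, which does not tell which holds 2 h and which 24 h, so the column names are kept and nothing is read from the hours.

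Iron enters most cells as transferrin bound to the transferrin receptor, is released and reduced in the endosome, and is carried into the cytosol by a divalent metal transporter. Iron that is not used at once is held inside ferritin, a shell of heavy and light chains, and leaves the cell through ferroportin. Both iron regulatory proteins, encoded by Aco1 and Ireb2, bind stem-loops called iron-responsive elements when the cell is short of iron: binding before the coding sequence blocks translation of ferritin and ferroportin, and binding after it protects the receptor's messenger RNA from decay. In mouse osteoclasts, which are rich in mitochondria, uptake of transferrin iron through the receptor is known to support differentiation and bone resorption. The data are messenger RNA levels, so translation of ferritin and ferroportin was not measured.

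The elements are shown because they are the sequence feature that places members of this pathway under 1 control. Transcripts of the 10 genes (GENCODE release M21 on GRCm38) were searched on their own strand for a C, 5 bases of any kind, the loop CAGTGN, and 5 bases that pair with the first 5, with G to T pairs allowed. The search found 7 elements in 4 genes. Each is printed 5′ to 3′ as 30 bases of the transcript in DNA letters, with the loop of 6 bases in capitals. The elements of Fth1 (chr19:9982732-9982761, plus strand), Ftl1 (chr7:45459778-45459807, minus strand) and Slc40a1 (chr1:45925464-45925493, minus strand) lie in the 5′ UTR, and those of Tfrc lie in the 3′ UTR on the plus strand of chromosome 16, at chr16:32631219-32631248, chr16:32631598-32631627, chr16:32631663-32631692 and chr16:32631710-32631739.
Fth1: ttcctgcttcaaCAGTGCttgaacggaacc
Ftl1: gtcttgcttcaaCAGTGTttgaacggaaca
Slc40a1: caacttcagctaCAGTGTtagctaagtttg
Tfrc, element 1: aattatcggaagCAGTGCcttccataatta
Tfrc, element 2: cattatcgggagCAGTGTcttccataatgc
Tfrc, element 3: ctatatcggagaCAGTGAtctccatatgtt
Tfrc, element 4: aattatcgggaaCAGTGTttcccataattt

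Position by position, the elements of both ferritin genes had the same base at 26 of 30 places, and that of Fth1 matched the Slc40a1 element at 13 of 30. The Tfrc elements matched each other at 18 to 25 of 30 places and lay within 521 bases. A 5′ UTR match of this kind was present in 28 of 20847 genes with a 5′ UTR (0.134%), and a 3′ UTR match in 127 of 20931 genes (0.607%). With 4 paired bases in place of 5, a match was also found in the 3′ UTR of Slc11a2 (chr15:100395152-100395181, minus strand), at a setting that 311 genes (1.486%) met in their 3′ UTR. It is printed because Slc11a2 is known to have transcripts with and without it, which a table of whole genes cannot separate.
Slc11a2: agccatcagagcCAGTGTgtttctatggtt

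A match is a description of the letters and does not show that a protein was bound. That setting gave 9 elements in 6 genes, and the other added match lay in the coding sequence of Slc11a1. At either setting Aco1, Ireb2, Steap3 and Slc48a1 held no match in the transcripts searched.

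The levels reached from ferritin, among the most abundant messenger RNAs of these cells, to ferroportin, which was the lowest of the 10 in each library. In the library of RANKL alone the order by FPKM was Fth1, Ftl1, Tfrc, Slc48a1, Slc11a2, Aco1, Ireb2, Slc11a1, Steap3 and Slc40a1. Among the 11069 genes, Fth1 ranked 28 and Ftl1 52 with RANKL alone, and Tfrc ranked 276. Neighbours in that order differed beyond counting error except Slc48a1 and Slc11a2, Slc11a2 and Aco1, and Slc11a1 and Steap3. In T1 Ireb2 stood above Aco1 and Steap3 above Slc11a1, and neither pair differed beyond counting error. In T2 Ireb2 stood above Aco1 1.11-fold (1.05 to 1.18), and Slc48a1 and Slc11a2 were again within counting error. "Beyond counting error" means here that the exact 95% interval of the ratio, from the whole reads recovered from each value, left out 1. Such an interval covers counting error only and compares 1 library with another, not the conditions. With 1 library per condition there is no replicate check and no test.

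**Figure D1:**
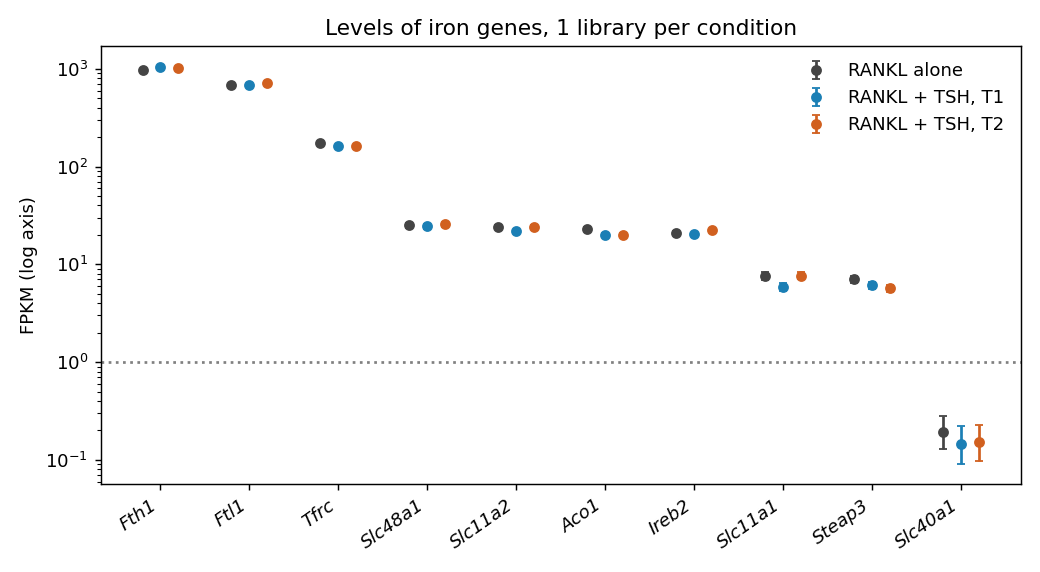
Level of each of the 10 genes in FPKM (log axis) in the libraries of RANKL alone, T1 and T2, 1 point per library, with bars for the 95% counting interval. The dotted line marks the minimum mean of 1 FPKM; both ferritin genes lie at 676.6 FPKM or above, Tfrc between 161 and 175, and Slc40a1 below 0.2 in each library, by the deposited gene lengths.

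The ranking rests on the gene lengths that the authors deposited. Those lengths are 1340 bases for Ftl1 and 9479 for Ireb2, against 968 and 5770 in the reference transcript, while Fth1 has 866 against 929. The widest gap was that of Slc40a1, at 9000 bases against 3370. With reference transcript lengths, which were tried after the data had been seen, Ftl1 stood at 936.6 FPKM and Fth1 at 909 in the library of RANKL alone, so their order turned. Aco1 then stood at 26.97 and Ireb2 at 34.64, and that order turned too. Slc11a2, at 34.67, and Ireb2 also passed Slc48a1, at 27.14. Slc40a1 stood at 0.5152 FPKM without TSH, 0.3893 in T1 and 0.4064 in T2 and was still the lowest. Ratios of 1 gene between libraries do not depend on its length.

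Differences between the libraries were small. Against RANKL alone, 1 of the 9 genes past the minimum was higher in T1 beyond counting error, 5 were lower and 3 stayed within it. Over all 11069 genes 10.8% were higher and 12.2% lower in the same comparison. In T2, 3 were higher, 3 were lower and 3 stayed within, beside 10.2% higher and 13.2% lower over all genes. Both comparisons use the same library of RANKL alone, so they are not independent. None of the 9 reached a log2 change of 1 in FPKM + 1 in T1 or T2, where 1.04% and 0.768% of all genes did. The median change of the 9 was -0.12 in T1 and 0.01 in T2, with medians over all genes of -0.0014 and -0.0018. The sign in T2 depends on the summary, with a median of -0.0044 without Fth1 and Ftl1 and a mean of -0.0336 over the 9. All 9 lay inside the central 95% of the changes of all genes, -0.39 to 0.42 in T1 and -0.37 to 0.42 in T2. Genes with many reads pass the interval at small changes: of the 2808 genes with a mean of 20 FPKM or more, 19.2% were higher and 19.4% lower in T1, and 15.3% and 24.8% in T2.

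**Figure D2:**
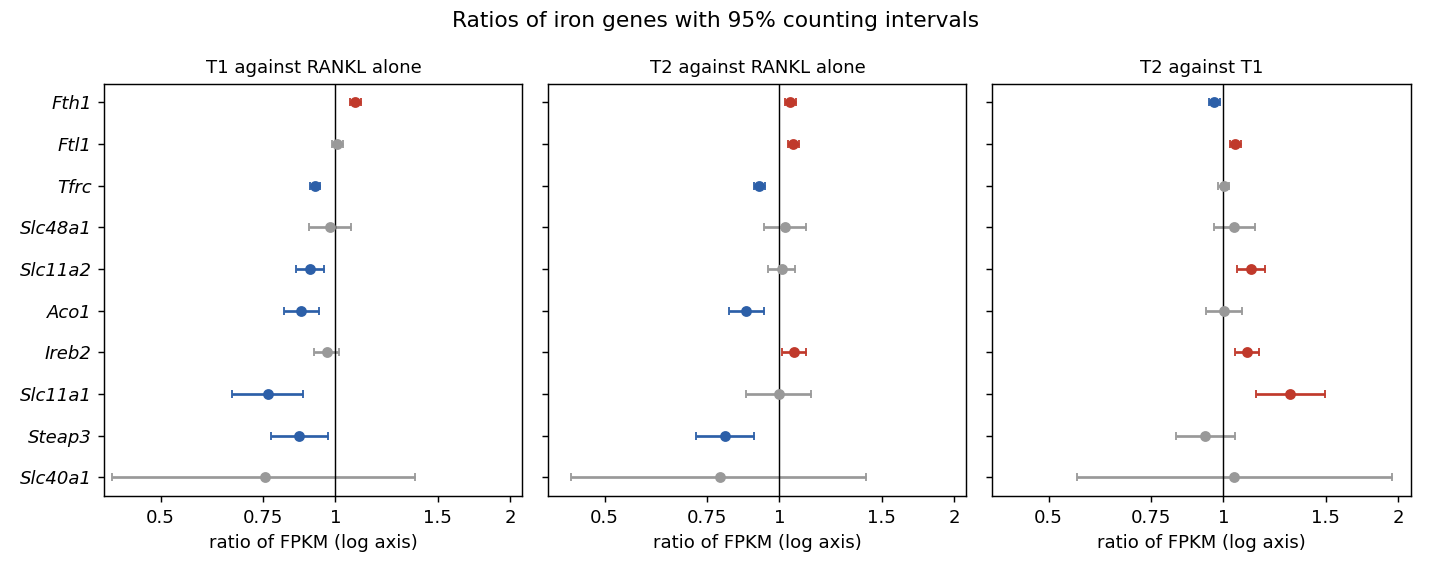
Ratio of FPKM (log axis) for each gene in the 3 comparisons between libraries, with 95% counting intervals. Red points are higher and blue points lower beyond counting error, and grey points are within it; Tfrc, Aco1 and Steap3 are blue against RANKL alone in both TSH libraries.

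The receptor for transferrin was a little lower in both TSH libraries. Tfrc (chromosome 16, 32608920 to 32632794, plus strand) measured 174.6 FPKM without TSH, 161.1 in T1 and 161.2 in T2, from 16707 to 17476 reads. Both TSH values were below that of RANKL alone and nearly equal to each other. The ratio to RANKL alone was 0.922 in T1 (0.903 to 0.942) and 0.923 in T2 (0.904 to 0.943). T2 against T1 gave 1.001 (0.980 to 1.02), which became higher beyond counting error, by 0.03 in log2, when the libraries were rescaled to the same sum.

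Steap3 reduces ferric iron in the endosome so that it can be transported. Its level was 7.03 FPKM without TSH, 6.094 in T1 and 5.672 in T2. The ratio to RANKL alone was 0.867 in T1 (0.774 to 0.971), which was within counting error at a 99% interval, and 0.807 in T2 (0.720 to 0.904). Both TSH libraries were below RANKL alone, and T2 against T1, at 0.931 (0.828 to 1.05), was within counting error.

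Slc11a2 encodes DMT1, the divalent metal transporter of the endosome, and Slc11a1 encodes NRAMP1, its relative in the phagosome of macrophages. RAW264.7 cells are known to carry a mouse allele of Slc11a1 whose protein does not function. Slc11a2 measured 24.09 FPKM without TSH, 21.78 in T1 and 24.31 in T2. Slc11a1 measured 7.681 FPKM, 5.875 and 7.655 in the same order. For both transporters T1 was the low library, and RANKL alone and T2 lay close together. Exons of Slc11a2 share 402 bases with Gm5475 on the opposite strand, which had 2 to 4 reads per library. The search for copies, which covered both strands, matched Gm5475 to Slc11a2 over 197 bases. Whether that match is the shared stretch itself was not tested, so it is not taken as a separate copy.

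In T1 against RANKL alone the ratio of Slc11a2 was 0.904 (0.854 to 0.957) and that of Slc11a1 was 0.765 (0.665 to 0.879), the lowest ratio among the 9 genes. In T2 the ratios were 1.01 (0.955 to 1.07) and 0.997 (0.876 to 1.13), both within counting error. Slc11a1 had 459, 365 and 497 reads, the fewest of the 9 genes, and its intervals are the widest among them. Within a library Slc11a2 exceeded Slc11a1 3.137-fold without TSH, 3.708-fold in T1 and 3.176-fold in T2.

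Slc48a1 encodes HRG1, which carries haem out of the phagolysosome when macrophages digest red cells. It measured 25.02 FPKM without TSH, 24.5 in T1 and 25.58 in T2. No pair of libraries differed beyond counting error. Its exons share 29 bases with Hdac7 on the opposite strand, for which 11 to 17 reads are listed per library. The ratio to RANKL alone was 0.979 (0.901 to 1.07) in T1 and 1.02 (0.942 to 1.11) in T2.

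Ferritin was slightly higher with TSH, the heavy chain in both libraries and the light chain in T2. Fth1, the heavy chain that oxidises iron on its way into the shell (chromosome 19, 9982703 to 9985092, plus strand), measured 975.1 FPKM without TSH, 1056 in T1 and 1019 in T2. Ftl1, the light chain that helps form the mineral core (chromosome 7, 45457944 to 45459884, minus strand), measured 676.6, 681.8 and 714.3 FPKM in the same order. Fth1 was highest in T1 and Ftl1 highest in T2. The ratio of Fth1 to RANKL alone was 1.08 in T1 (1.06 to 1.11) and 1.04 in T2 (1.02 to 1.07). That of Ftl1 was 1.01 in T1 (0.985 to 1.03) and 1.06 in T2 (1.03 to 1.08).

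Fth1 and Ftl1 both have pseudogene copies, and how the authors counted reads that match several places is not given in the sources used here. Their levels are therefore uncertain to that extent. Among GENCODE transcripts 12 other genes held sequence near-identical to Ftl1, and they are counted here as copies. The match was at 95% identity or more over 100 or more bases that made up at least 50% of the shorter of both transcripts. Not all 12 are pseudogenes, since they include microRNA genes of 109 bases and an antisense RNA, Gm47428. The microRNA gene Gm22133 lies in Ftl1 exons on the same strand, so it is part of the Ftl1 locus and no separate copy. Of the 12, Ftl1-ps1 on chromosome 13, 97.3% identical and annotated as protein-coding, held most reads, at 349, 356 and 368 with RANKL alone, T1 and T2. Gm15590 came next with 24, 37 and 64 reads. All copies together made up 2.52% of the summed reads with RANKL alone. Against RANKL alone, the ratios of the sums, 1.01 in T1 and 1.06 in T2, were those of Ftl1 alone to the digits given.

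Fth1 had 1 such copy, Gm6977 on chromosome X, with 0 reads in each library. Fth-ps2, a pseudogene found by its name, had 5, 4 and 5 reads. Of the 16 other genes described as ferritin, 13 had 0 reads in all libraries, among them Ftmt, mitochondrial ferritin. Exons of Ftl1 also share 355 bases with Gm10252 on the opposite strand, which had 3, 14 and 21 reads against 14622, 15320 and 16773 for Ftl1. Whether the counting used strand is not given in the sources used here.

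Export was represented by a trace. Slc40a1, the gene of ferroportin, measured 0.1929 FPKM with RANKL alone (28 reads, 0.128 to 0.279), 0.1458 in T1 (22 reads, 0.0914 to 0.221) and 0.1522 in T2 (24 reads, 0.0975 to 0.226), by the deposited length. The intervals of all 3 libraries overlap. The ratio to RANKL alone was 0.756 in T1 (0.412 to 1.37) and 0.789 in T2 (0.438 to 1.41), both within counting error, and differences inside these intervals were not detectable at this depth. Within a library Tfrc exceeded Slc40a1 905.3-fold with RANKL alone, with a counting interval of 626.2 to 1363, and by 1105-fold in T1 and 1060-fold in T2. By reference transcript lengths these ratios were 428.8, 523.4 and 501.8. In bulk RNA, a few cells with the transcript and a low level in every cell cannot be told apart.

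The genes of the iron regulatory proteins had different ratios. Aco1 encodes IRP1, a cytosolic aconitase that binds RNA once it has lost its iron-sulphur cluster, and Ireb2 encodes IRP2, which is degraded when iron is plentiful. Aco1 measured 22.99 FPKM without TSH, 20.1 in T1 and 20.14 in T2. Ireb2 measured 21.09, 20.38 and 22.37 FPKM. Aco1 was lower in both TSH libraries, while Ireb2 was highest in T2.

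The ratio of Aco1 to RANKL alone was 0.874 in T1 (0.815 to 0.938) and 0.876 in T2 (0.817 to 0.939). That of Ireb2 was 0.967 in T1 (0.920 to 1.02), which became lower beyond counting error after rescaling to the same sum. In T2 it was 1.06 (1.01 to 1.11), within counting error at a 99% interval. Both genes are known to be controlled mainly at the level of their proteins, which were not measured.

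Ratios of 1 member to another within the same library do not depend on how libraries are scaled. The ratio of Fth1 to Ftl1 was 1.441 without TSH, 1.548 in T1 and 1.427 in T2. It was 1.07 times that of RANKL alone in T1 (1.04 to 1.11) and 0.990 times in T2 (0.959 to 1.02). The ratio of heavy to light chain was thus higher in T1 than in either other library, and T2 against T1 gave 0.921 (0.893 to 0.951).

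The ratio of Aco1 to Ireb2 was 1.09 without TSH, 0.9858 in T1 and 0.9006 in T2, so that it was 0.904 times that of RANKL alone in T1 (0.830 to 0.985) and 0.826 times in T2 (0.759 to 0.899). It was highest with RANKL alone and lowest in T2, and T2 against T1 gave 0.914 (0.839 to 0.995). The ratio of Slc11a2 to Slc11a1 differed from that of RANKL alone 1.18-fold in T1 (1.02 to 1.38) and 1.01-fold in T2 (0.880 to 1.17).

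The receptor was also set against the ferritin heavy chain, a pair chosen after its values had been seen. The ratio of Tfrc to Fth1 was 0.1791 without TSH, 0.1526 in T1 and 0.1582 in T2. It was 0.852 times that of RANKL alone in T1 (0.826 to 0.879) and 0.884 times in T2 (0.856 to 0.912). Both TSH libraries were below RANKL alone, and they differed from each other less, by 1.04-fold (1.01 to 1.07) for T2 against T1.

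**Figure D3:**
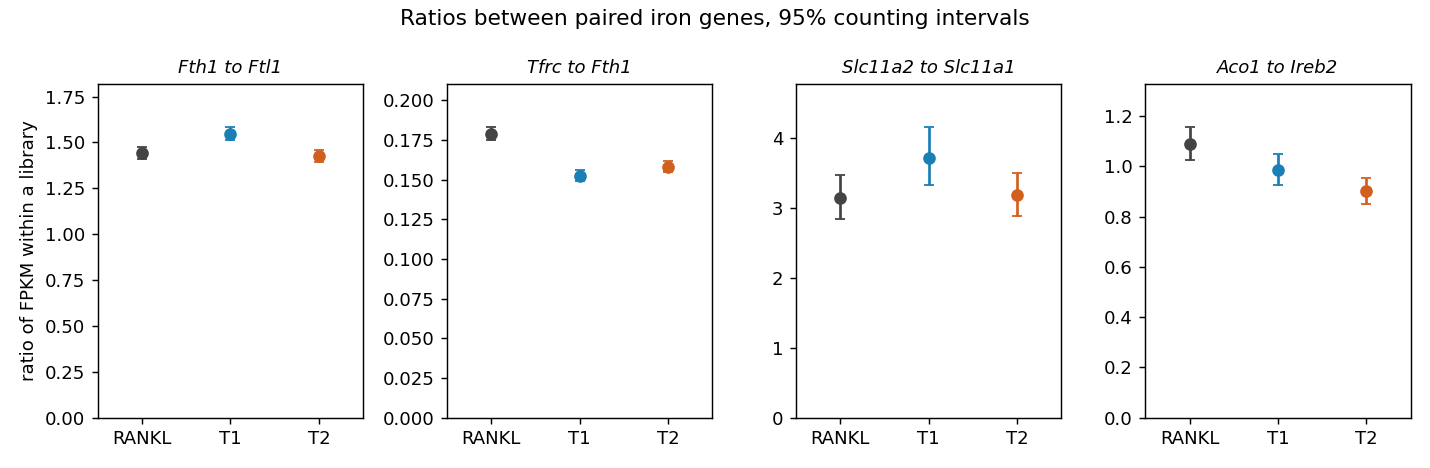
Ratio of the FPKM of 1 gene to another within each library (linear axes from 0), with 95% counting intervals. Tfrc to Fth1 is lower in both TSH libraries than with RANKL alone, Aco1 to Ireb2 is lowest in T2, and Fth1 to Ftl1 and Slc11a2 to Slc11a1 are highest in T1.

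Set against each other, T2 was higher than T1 beyond counting error for 4 of the 9 genes and lower for 1, beside 7.93% and 10.1% of all genes. No member reached a log2 change of 1, as 0.831% of all genes did. The 4 were Slc11a1 at 1.30 (1.14 to 1.496), Slc11a2 at 1.12 (1.06 to 1.18), Ireb2 at 1.10 (1.05 to 1.15) and Ftl1 at 1.05 (1.02 to 1.07). The gene below 1 was Fth1 at 0.965 (0.944 to 0.987), which came within counting error once the libraries were rescaled to the same sum. Tfrc, Aco1, Steap3 and Slc48a1 were within counting error. The median log2 change of the 9 was 0.06, with a median of -0.0027 over all genes.

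Around these genes, 112 others of iron metabolism were read in 9 lists, all were found, and 78 passed the minimum of 1 FPKM. Of the 78, 4 were higher and 15 lower in T1 than with RANKL alone, and for T2 the numbers were 6 and 15. The median log2 changes were -0.01 and -0.04. T2 against T1 gave 4 higher and 6 lower. Over all genes past the minimum, 10.8% were higher and 12.2% lower in T1, and 10.2% and 13.2% in T2. For T2 against T1 the shares were 7.93% and 10.1%. The counts here and in each list below are to be read beside these shares.

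**Figure D4:**
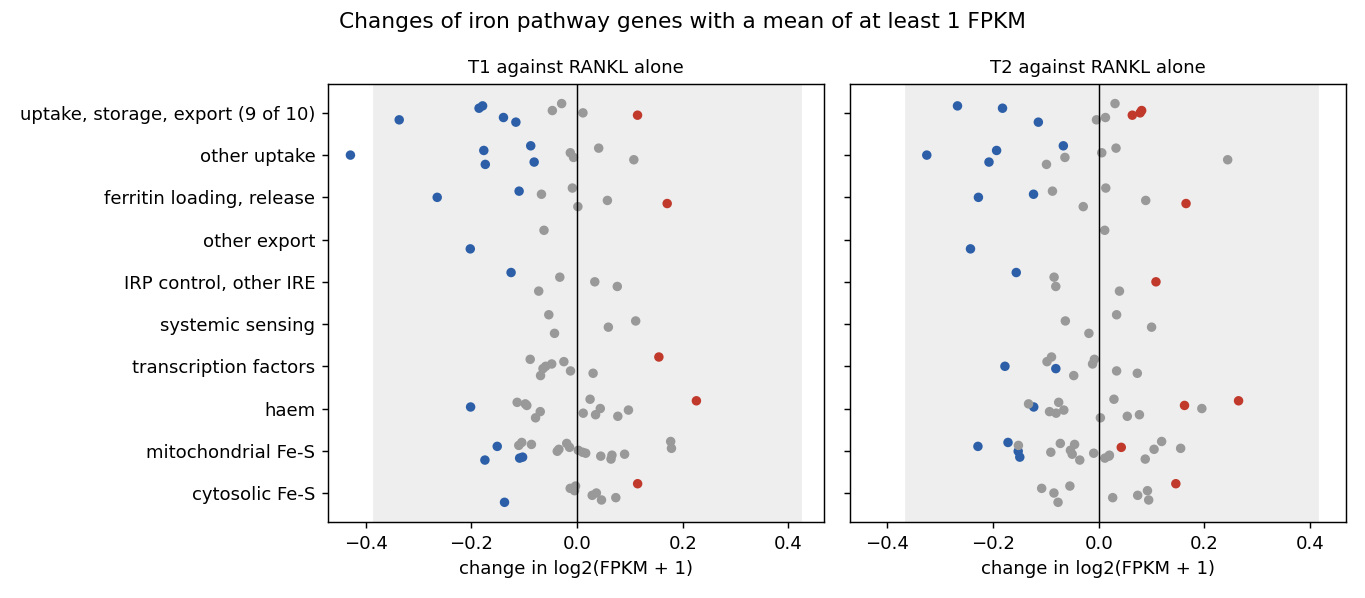
Change in log2(FPKM + 1) of each gene past the minimum of 1 FPKM, by list, for T1 and T2 against RANKL alone. Red points are higher and blue points lower beyond counting error, grey points are within it, and the grey band holds the central 95% of all genes. The list of other uptake genes holds 5 blue points in T1 and 4 in T2 with no red. That of mitochondrial Fe-S genes holds 4 blue in each panel, with 1 red in T2.

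In other uptake genes, 9 of 22 passed the minimum. In T1 5 were lower and in T2 4, with none higher, beside 12.2% and 13.2% lower over all genes. Slc46a1, a carrier of folate that can also move haem, was lowest in relative terms, at 1.832 FPKM without TSH, 1.104 in T1 and 1.26 in T2. The ratios to RANKL alone were 0.603 (0.425 to 0.848) and 0.688 (0.495 to 0.952). Snx3, a sorting nexin that helps return the transferrin receptor to the surface, stood at 97.77, 86.39 and 85.38 FPKM, with ratios of 0.884 (0.832 to 0.939) and 0.873 (0.822 to 0.927). Lrp1, the receptor for haem bound to hemopexin, stood at 82.06, 77.51 and 70.92 FPKM, and T2 was 0.864 of RANKL alone (0.849 to 0.880). Slc39a14, which takes up iron not bound to transferrin, was 0.862 of RANKL alone in T1 (0.777 to 0.956). Vps35, a part of the retromer that sorts endosomal cargo, was lower in both, at 0.939 and 0.953 of RANKL alone. Trf, the gene of transferrin itself, had 0 reads in each library.

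Among genes that load ferritin or release its iron, 7 of 9 passed the minimum, with 1 higher and 2 lower in both TSH libraries. Ncoa4, the cargo receptor that takes ferritin to the lysosome, measured 15.04 FPKM without TSH, 12.35 in T1 and 12.69 in T2. The ratios were 0.821 (0.773 to 0.873) and 0.844 (0.795 to 0.896). Pcbp2, an iron chaperone that delivers iron to ferritin, measured 46.51, 52.47 and 52.27 FPKM, with ratios of 1.13 (1.08 to 1.18) and 1.12 (1.08 to 1.17). Both TSH libraries thus lay on the same side of RANKL alone for each of these genes. Bola2, a partner in cytosolic iron transfer, was 0.923 in T1 (0.855 to 0.997), and Herc2, a ligase known to act on NCOA4, was 0.910 in T2 (0.860 to 0.962).

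In the other export genes, 2 of 8 passed the minimum. Flvcr1, known as a haem exporter and a choline importer, was the gene lower in both TSH libraries, at 8.923 FPKM without TSH, 7.626 in T1 and 7.385 in T2. The ratios were 0.855 (0.769 to 0.9503) and 0.828 (0.745 to 0.920). Heph and Hephl1, which encode ferroxidases, had 0 reads in all libraries. So did Hamp, the gene of hepcidin, the hormone that closes ferroportin, and its relative Hamp2. Cp, which also encodes a ferroxidase, had 6, 5 and 14 reads with RANKL alone, T1 and T2 and did not pass the minimum. Of the genes that control the regulatory proteins or carry other elements, 5 of 9 passed. Fbxl5, the iron sensor that directs IRP2 to degradation, measured 5.596, 5.272 and 5.777 FPKM and was within counting error in both. Cul1, part of that ligase, was 1.08 in T2 (1.02 to 1.14), and Skp1a, another part, was 0.895 in T2 against T1 (0.841 to 0.952).

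In haem metabolism 13 of 14 genes passed, with 1 higher and 1 lower in T1, and 2 higher and 1 lower in T2. Blvrb, biliverdin reductase B, measured 21.48 FPKM without TSH, 25.29 in T1 and 26.01 in T2. Hmox1, haem oxygenase, which frees iron from haem, measured 53.4, 49.93 and 59.87 FPKM. Hmox1 was thus highest in T2, at 1.12 of RANKL alone (1.05 to 1.201) and 1.199 of T1 (1.12 to 1.28), while Blvrb was higher in both TSH libraries, at 1.18 (1.08 to 1.28) and 1.21 (1.11 to 1.32). Fech, which puts iron into protoporphyrin, was 0.865 in T1 (0.796 to 0.939) and 0.915 in T2 (0.844 to 0.992). Cpox, an earlier step of haem synthesis, was 0.868 in T2 against T1 (0.762 to 0.990).

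Among 20 of 21 mitochondrial iron and iron-sulphur cluster genes past the minimum, 4 were lower and none higher in T1, and 4 were lower and 1 higher in T2. Glrx5, a glutaredoxin of cluster assembly, stood at 36.44 FPKM without TSH, 32.72 in T1 and 30.95 in T2, with ratios of 0.898 (0.845 to 0.954) and 0.849 (0.799 to 0.903). Slc25a37, mitoferrin 1, which carries iron into mitochondria, stood at 9.752, 8.528 and 9.487 FPKM and was 0.874 of RANKL alone in T1 (0.796 to 0.960). Abcb8, a transporter of the mitochondrial inner membrane, was 0.928 in T1 and 0.897 in T2. Hspa9, the chaperone of the cluster scaffold, was the gene higher in T2, at 303 FPKM against 294.2 with RANKL alone. Slc25a37 had T1 as the low library, and T2 against T1 gave 1.11 (1.02 to 1.22). Bola3 and Isca1, late factors of cluster assembly, were 0.878 (0.783 to 0.985) and 0.878 (0.795 to 0.971) in T2 against RANKL alone, and Nfs1, the cysteine desulphurase, was 0.901 in T2 against T1 (0.821 to 0.990).

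All 9 genes of cytosolic cluster assembly passed, with 1 higher and 1 lower in T1 and 1 higher in T2. Mms19, which hands clusters to target proteins, was 1.10 in T1 (1.01 to 1.19) and 1.12 in T2 (1.03 to 1.22), and Ciapin1, an early electron carrier of the pathway, was 0.901 in T1 (0.841 to 0.966). Of the transcription factors that act on iron genes, 9 of 10 passed, with 1 higher in T1 and 2 lower in T2. Mitf, a factor of osteoclasts and lysosomes, stood at 15.84 FPKM without TSH, 17.75 in T1 and 14.83 in T2, and was 1.12 of RANKL alone in T1 (1.05 to 1.199) and 0.836 in T2 against T1 (0.781 to 0.894). Ppargc1b, a coactivator of mitochondrial growth known from mouse osteoclasts, was 0.877 in T2 (0.802 to 0.959), and Myc was 0.944 (0.895 to 0.997). Of the genes of systemic iron sensing 4 of 10 passed, none differed from RANKL alone beyond counting error, and Acvr1, a bone morphogenetic protein receptor, was 0.870 in T2 against T1 (0.770 to 0.983).

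As a check of the cells, 8 of 9 osteoclast markers and 6 of 6 macrophage markers passed the minimum. The summed level of the osteoclast list was 3071 FPKM without TSH, 2552 in T1 and 2476 in T2, and that of the macrophage list was 1232, 1219 and 1220. Ctsk, the main protease of bone resorption, and Acp5, an osteoclast phosphatase, carried most of the osteoclast sum, and Ctsk measured 1337, 983.2 and 979.9 FPKM. Of the 8 osteoclast markers past the minimum, 5 were lower and 1, Nfatc1, was higher than with RANKL alone in T1, and 8 were lower in T2. Their ratios in T2 ran from 0.733 for Ctsk to 0.962 for Nfatc1. Over all genes past the minimum, 10.8% were higher and 12.2% lower in T1, and 10.2% and 13.2% in T2. Of genes with a mean of 20 FPKM or more, 19.4% were lower in T1 and 24.8% in T2. Of the 6 macrophage markers, Adgre1, Itgam and Lyz2 were higher in T1 and Adgre1, Lyz2 and Cd14 in T2. Csf1r and Cd68 were lower in both. Adgre1 stood at 1.41 and 1.34 of RANKL alone and Csf1r at 0.956 and 0.953. Itgam stood at 1.52 in T1 and at 0.888 in T2, where it was within counting error. Tfrc, Aco1 and Steap3 were lower in the same libraries as the osteoclast sum, and the part of the markers in those differences was not tested. No marker of erythroid cells (8 genes), hepatocytes (6), osteoblasts (7), lymphocytes (6) or neutrophils (6) passed, and the erythroid list summed to at most 0.4439 FPKM with Hba-a1, Hbb-bs and Gata1 among those at 0 reads. Reads summed to 16156926, 16809034 and 17390744 with RANKL alone, T1 and T2.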

How the data were processed

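Per the labels' protocols, total RNA was made into libraries with a SMARTer mRNA kit. The authors deposited 1 table of FPKM per gene with the gene length in bases beside it, and 0 per-sample columns were left unused. Builds are GRCm38 and mm10 per the submitters' processing notes. The aligner, counter and strand setting were not given in the sources used here.

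FPKM times length gave whole reads, within 0.01, for 100% of values above 0, and the depth this implies was off the summed reads by -0.177%, -0.241% and 0.763%. The floor of 3 reads, for 1 kb of length, came to 0.186 FPKM without TSH, 0.179 in T1 and 0.171 in T2. Ratios of FPKM carry exact conditional (Clopper-Pearson) 95% intervals from these reads. Reads that are PCR copies are not independent molecules, so intervals and floors cover counting error only. Changes are differences of log2(FPKM + 1), which understate those of low genes. With 1 library per condition there was no test. Comparisons planned as 2 h and 24 h are given as T1 and T2.

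The members and lists were chosen with earlier results of these data known. Named are all members and, per list and comparison, up to 3 genes with the largest change among those past 1 FPKM and beyond counting error. Of the copies of each ferritin gene the 2 with most reads were to be named. Fbxl5, Vps35, Abcb8, Hspa9, Cp, the genes at 0 reads, Fth-ps2 and Ftmt were named after their values were seen. Some genes that the rule names are not reported here. Trf was matched from the older symbol Tf through RefSeq synonyms. Copies were sought with BLAST+ 2.17.0 and elements with a search of GENCODE M21 transcripts, which held 99.774% of the identifiers.

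Alternatives were pseudocounts of 0.1 and 5, no minimum, a mean of at least 5 or 20 FPKM, 99% intervals, libraries rescaled to the same sum, median-of-ratios scaling, the mean of members, leaving out Fth1 and Ftl1, and sums over copies. Reference transcript lengths, the pair of Tfrc and Fth1 and copies at 90% identity were added after seeing the data. The interval code was tested on simulated data. Software was Python 3.11.15 and its packages numpy (2.4.6), scipy (1.17.1), pandas (2.3.3) and matplotlib (3.10.9).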

Additional observations from a re-analysis of the deposited data

How the results depend on the processing

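Rescaling to the same sum or a 99% interval changed the call of 5 comparisons of single iron genes, each named beside its value above. Against RANKL alone, rescaling also turned the sign of Ftl1 in T1, from 0.01 to -0.01, and of Slc11a1 in T2, from -0.0044 to 0.0021. Both were within counting error. With a mean of at least 20 FPKM, 3 of the iron genes were lower in T1; in the other lists 6 were lower and 2 higher in T1, 7 were lower in T2, and 2 were lower and 2 higher in T2 against T1. Without Fth1 and Ftl1, 0 were higher in T1, 1 was higher in T2 and 0 were lower in T2 against T1. After rescaling to the same sum, T2 against T1 had 0 iron genes lower, and 3 lower and 9 higher in the other lists. The same rescaling moved the median change over all genes in that comparison from -0.0027 to 0.0269. At 99% intervals the other lists had 9 lower in T2, and 3 lower and 2 higher in T2 against T1. Shares over all genes after rescaling and at 99% intervals are not given here, so these counts are not read as particular to iron genes. The mean of the iron genes in T2, -0.0336, and their median without Fth1 and Ftl1, -0.0044, had the opposite sign to the median of 0.01. The cause of these differences was not tested. A mean of at least 20 FPKM and leaving out Fth1 and Ftl1 leave fewer genes to count.

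Sums over copies put Fth1 to Ftl1 at 1.405, 1.509 and 1.39 with RANKL alone, T1 and T2. Reference transcript lengths, which rescale each gene by a constant, put it at 0.9706, 1.043 and 0.9607, and Aco1 to Ireb2 at 0.7786, 0.7041 and 0.6432. In the same order, they put Slc11a2 to Slc11a1 at 2.821, 3.334 and 2.856, and Tfrc to Slc40a1 at 428.8, 523.4 and 501.8. Tfrc to Fth1 came to 0.243, 0.207 and 0.2147. Median-of-ratios scaling gave the same factor, 1.0011, for all 3 libraries, so it could change no comparison and is no check of them. Values already scaled in that way would give equal factors, and whether the deposited values were was not tested. With 1 library per condition no replicate could be left out and no paired fit could be made. Depth limits Slc40a1 most, at 22 to 28 reads.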
